A study of Homo sapiens with 11 samples.

Results

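Heme oxygenase 1 (HMOX1) and 8 other genes that make, break down or store heme and iron were followed in HEK293T cells, a long-established line derived from human embryonic kidney. They were taken by name from a deposited table of read totals per gene and are 9 of its 38021 genes: HMOX1, HMOX2, BLVRA, BLVRB, FTH1, FTL, TFRC, FECH and ALAS1. Wild-type cells were treated for 6 h with vehicle (0.1% DMSO), with thapsigargin (Tg) at 500 nM, or with one of the compounds AA147 and AA132, which the study's title places among pharmacological regulators of endoplasmic reticulum (ER) proteostasis. Tg blocks the calcium pump of the ER and is a standard agent for causing ER stress. AA147 was given at 10 µM, and AA132 at 0.1, 0.3, 1, 3, 6, 10, 15 and 30 µM. All groups are 1 cell line at 1 time. No marker list was fixed for the line, so its identity rests on the label. GEO lists 1 sample per condition and the table holds 3 columns for each, called libraries 1, 2 and 3 here. Nothing in the labels says that the 3 came from separate cultures, so p-values measure the spread between these libraries, which may be technical.

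Heme oxygenases open the heme ring and release iron, carbon monoxide and biliverdin, which the biliverdin reductases turn into bilirubin. The freed iron can be stored in ferritin, a shell of heavy (FTH1) and light (FTL) chains, while iron enters cells bound to transferrin through the receptor TFRC. ALAS1 catalyses the first step of heme synthesis outside red cell precursors, and FECH the last, the insertion of iron. HMOX1 and both ferritin genes are textbook targets of NRF2, an activator of antioxidant genes, and of BACH1, a repressor that heme inactivates. Ferritin and TFRC mRNAs are also governed after transcription, by iron regulatory proteins that bind short hairpins called iron-responsive elements.

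The hairpins are shown because they set apart the ferritin and receptor mRNAs, whose transcript levels are only one layer of their regulation. GENCODE v44 transcripts on GRCh38 were searched for the loop CAGTG followed by A, C or T, on a stem of 5 paired bases with the bulged C below it. FTH1 and FTL each held 1 such element, in the 5′ UTR in exon 1 of 4, and TFRC held 4, in the 3′ UTR in exon 19 of 19. The transcripts of the other 6 genes held none by this rule. The 29 bases of each are given 5′ to 3′ in the sense of the mRNA, with T for U and the loop in capitals. The FTH1 element lies on the minus strand at chr11:61967574-61967602, and the FTL element on the plus strand at chr19:48965335-48965363. The TFRC elements lie on the minus strand at chr3:196050979-196051007, chr3:196050575-196050603, chr3:196050510-196050538 and chr3:196050463-196050491, in the order listed.
FTH1: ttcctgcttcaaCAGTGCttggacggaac
FTL: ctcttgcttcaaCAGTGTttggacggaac
TFRC, the first: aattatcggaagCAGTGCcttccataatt
TFRC, the second: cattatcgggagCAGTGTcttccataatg
TFRC, the third: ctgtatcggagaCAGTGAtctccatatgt
TFRC, the fourth: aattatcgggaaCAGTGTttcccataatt
These are single short windows of the reference, and the counts do not say whether a protein was bound there.

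The libraries held 32.27 to 37.96 M counts each, so depth differed little. Values are CPM, counts relative to library size, after scaling by the trimmed mean of M values, given as mean ± SD over 3 libraries. Log2 fold changes with standard errors (SE) come from a single edgeR quasi-likelihood fit over all 33 libraries. A gene was called where its Benjamini-Hochberg adjusted p, over the 17793 genes tested, was under 0.05, and adjusted p-values below are from that test unless another tool is named. All 9 genes passed the filter on low counts.

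Several libraries stood apart from the others of their condition. AA132 1 µM library 1 and 3 µM library 3 went against the rest of their conditions in HMOX1. Over 9786 genes, the root mean square log2 difference of 1 µM library 1 was 0.15 from the other libraries of its own condition and 0.13 from 3 µM libraries 1 and 2. For 3 µM library 3 it was 0.13 from its own condition and 0.11 from 1 µM libraries 2 and 3. Each was thus nearer to the other dose than to its own, although the labels were kept as given. Vehicle library 1 was the highest of the 3 vehicle libraries for 7 of the 9 genes and the lowest for 2. Chi-square per degree of freedom, where counting error alone would give about 1, was 64.5 between it and library 2 and 49.9 between it and library 3, against 7.94 between libraries 2 and 3. AA132 10 µM library 1 (39.1 and 36.4 against libraries 2 and 3, which differed by 6.89) and AA147 library 1 (24.8 and 23.9, against 5.06) also stood apart by this measure. AA132 30 µM library 3 did so to a lesser degree (20.2 and 14.3 against libraries 1 and 2, which differed by 6.82). Where leaving out one of these libraries changed a call of the 9 genes, the value without it is given beside the result. For genes of the pathway lists the number or kind of alternatives is given instead. Leaving out the 1 and 3 µM pair, alone or with vehicle library 1, was chosen after the data were seen.

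HMOX1, the inducible heme oxygenase (chr22:35380361-35394214, plus strand), was called higher with AA132 from 6 µM upward and with Tg. Its mean was also higher with AA147 and with 3 µM AA132, without a call. In vehicle its 3 libraries were at 16.4, 11.1 and 11.9 CPM. AA132 at 0.1 µM gave 12.7, 13.7 and 13.1 CPM, and 0.3 µM gave 11.2, 12.4 and 10.99 CPM. Both doses lay within the vehicle range or at its lower edge. AA132 at 1 µM gave 39.8, 11.5 and 12.1 CPM, and 3 µM gave 49.3, 43.9 and 14.2 CPM. At each of these doses a single library disagreed with the other two: library 1 was high at 1 µM and library 3 was low at 3 µM. AA132 at 6 µM gave 68.8, 76.3 and 66.4 CPM. At 10 µM the libraries were at 70.7, 125.7 and 118.1 CPM, library 1 standing well below the other two and within the range of the 6 µM libraries. At 15 µM they were at 154.5, 159.1 and 152.7 CPM, and at 30 µM at 207.8, 189.3 and 205.0 CPM. No library at 6 µM or above overlapped the vehicle range, and the 15 and 30 µM libraries lay apart from each other and from all lower doses.

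**Figure D1:**
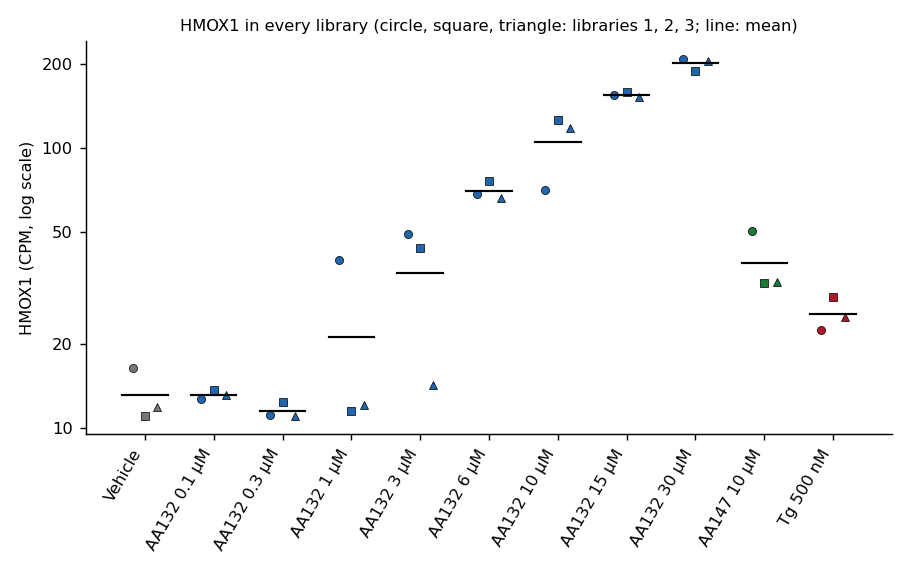
HMOX1 in CPM on a log axis for each condition; circles, squares and triangles are libraries 1, 2 and 3 and the line is their mean. The plot shows the low doses level with vehicle, 1 library out of place at 1 µM and 1 at 3 µM, and a mean of 200.7 CPM at 30 µM.

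AA147 at 10 µM gave HMOX1 values of 50.4, 32.9 and 33.1 CPM, and Tg gave 22.4, 29.3 and 24.9 CPM. All 6 of these libraries lay above the highest vehicle library. Ordered by mean, HMOX1 ran from AA132 0.3 µM, vehicle and 0.1 µM through 1 µM, Tg, 3 µM, AA147, 6 µM and 10 µM to 15 and 30 µM. Neighbours in this order overlapped in range except at 3 steps: AA147 to 6 µM, 10 to 15 µM and 15 to 30 µM.

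Against vehicle, HMOX1 was 5.38-fold higher at 6 µM AA132 (log2 fold change 2.43, SE 0.33, adjusted p = 4.36e-05). It stood at 3.00 (SE 0.34, adjusted p = 1.84e-06) on the log2 scale at 10 µM and 3.57 (SE 0.34, adjusted p = 6.43e-08) at 15 µM. At 30 µM it was 3.94 (SE 0.35, adjusted p = 6.52e-09), a 15.3-fold difference with a 95% interval of 9.40 to 24.9. HMOX1 was the only one of the 9 genes called at 6 µM, where 1.07% of all genes were called. With Tg the log2 fold change was 0.96 (SE 0.33, adjusted p = 0.0256), and leaving out any of Tg libraries 2 or 3 or vehicle libraries 2 or 3 ended that call (adjusted p = 0.0917, 0.0535, 0.0908 and 0.0764). Over the 24 AA132 libraries HMOX1 gained 1.81 on the log2 scale for each 10-fold step in dose (SE 0.12, adjusted p = 4.70e-12).

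The fitted change of HMOX1 at 3 µM and with AA147 turned on the libraries that stood apart. At 3 µM it was 1.45 (SE 0.33, adjusted p = 0.0621) with all libraries and 1.83 (SE 0.18, adjusted p = 9.61e-08) without 1 µM library 1 and 3 µM library 3. Leaving out 1 library at a time gained the 3 µM call without 3 µM library 3 (adjusted p = 0.00124), 1 µM library 1 (0.0111) or library 2 (0.0429), 10 µM library 1 (0.0458) or vehicle library 1 (0.034). At 1 µM it moved from 0.69 (SE 0.33, adjusted p = 0.827) to -0.15 (SE 0.19, adjusted p = 0.978) without that pair. For AA147 it was 1.57 (SE 0.33, adjusted p = 0.0902) with all libraries, and the same 1.57 with a smaller SE of 0.16 (adjusted p = 2.48e-06) without the pair. Neither excluded library belongs to AA147 or vehicle, and what changed was the estimate of the spread that all conditions share. Leaving out either one alone gained the AA147 call (adjusted p = 0.00445 without 1 µM library 1 and 0.00661 without 3 µM library 3), and DESeq2 on all libraries gave 0.0244. By edgeR on all libraries the unadjusted p of HMOX1 was 4.05e-05 with AA147 and 0.00011 at 3 µM. Both were smaller than the 0.00673 with Tg, which was called. The adjustment depends on all genes tested, of which 31.2% were called with Tg, 0.0225% with AA147 and 0.118% at 3 µM.

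**Figure D2:**
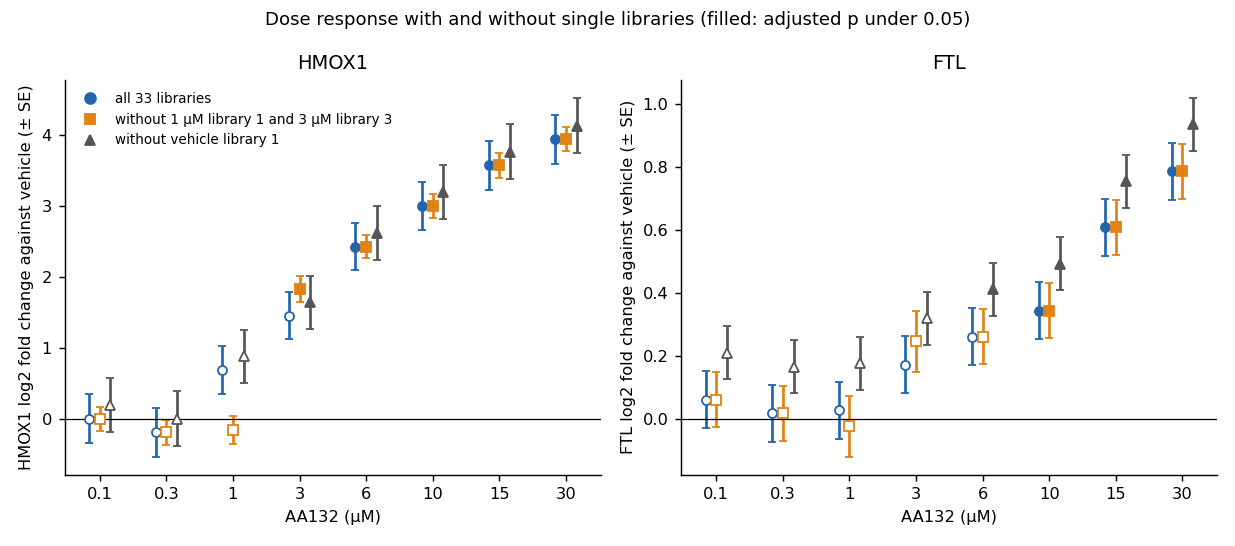
Fitted log2 fold change against vehicle (± SE) of HMOX1 and FTL at each AA132 dose, with all 33 libraries, without 1 µM library 1 and 3 µM library 3, and without vehicle library 1; filled points have adjusted p under 0.05. For HMOX1 the 1 µM point falls from 0.69 to -0.15 and the 3 µM point rises from 1.45 to 1.83 without the pair, while the points from 6 µM upward stay called.

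AA132 and AA147 were both tested at 10 µM, which is the only matched dose and the only pair compared. HMOX1 was 2.70-fold higher with AA132 than with AA147 (log2 difference 1.43, SE 0.31, 95% interval 0.80 to 2.06), but its adjusted p of 0.0662 did not pass. All 3 AA132 libraries lay above all 3 AA147 libraries. The difference passed without the pair of libraries that stood apart (1.43, SE 0.15, adjusted p = 2.25e-06), under DESeq2 (adjusted p = 0.0346) and with library number as a block (adjusted p = 0.0495). It also passed on leaving out any one of 7 libraries, among them AA132 10 µM library 1 (1.64, adjusted p = 0.012), AA147 library 1 (1.67, adjusted p = 0.0415) and vehicle library 1 (adjusted p = 0.022). The others were 1 µM library 1 (adjusted p = 0.00664), library 2 (0.0394) and library 3 (0.0494) and 3 µM library 3 (0.0117). None of the 9 genes was called in this comparison by edgeR, against 0.0674% of all genes. At an unadjusted p under 0.05 there were 2, HMOX1 and ALAS1, beside 1425 of 17793 genes. DESeq2 called 1, beside 55 of 14688 genes. For the other 8 genes the 95% intervals of the log2 difference lay between -0.21 and 0.38. The ALAS1 interval, 0.02 to 0.27, lay wholly above 0, and those of the other 7 spanned 0.

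HMOX2, the constitutive heme oxygenase (chr16:4474690-4510347, plus strand), fell with Tg and was not called with either compound. Vehicle libraries were at 74.1, 62.8 and 56.5 CPM and Tg libraries at 43.2, 47.1 and 46.0 CPM. The Tg libraries all lay below the vehicle range. Tg thus lowered HMOX2 by a log2 fold change of -0.50 (SE 0.09, adjusted p = 2.48e-05). At AA132 30 µM the libraries were at 52.0, 61.5 and 63.8 CPM and overlapped vehicle, with a fold change whose 95% interval ran from 0.81 to 1.04. Its slope on dose was -0.01 (SE 0.02, adjusted p = 0.866). HMOX2 was higher at AA132 30 µM than with Tg by a log2 difference of 0.38 (SE 0.09, adjusted p = 0.000969).

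Levels of the 2 heme oxygenases were compared per kilobase of annotated exon. In vehicle HMOX1 stood at 0.30 ± 0.03 of HMOX2 (SD, n = 3), and at 0.32, 0.26 and 0.31 in the single libraries. With AA132 the ratio was 1.71 ± 0.08 at 6 µM and 2.49 ± 0.65 at 10 µM. It reached 3.84 ± 0.22 with 15 µM and 5.02 ± 0.73 with 30 µM. HMOX1 was thus the lower of the pair per kilobase in all vehicle libraries and the higher in all libraries from 6 µM upward. It was 0.93 ± 0.15 with AA147 and 0.82 ± 0.08 with Tg. With the longest annotated transcript in place of all exons, the ratio was 0.23 in vehicle, 1.31 at 6 µM and 3.85 at 30 µM, so the means changed order between 3 and 6 µM by either length. At 3 µM the single libraries were at 1.22, 1.16 and 0.36 by all exons and at 0.94, 0.89 and 0.27 by the longest transcript, so which gene was higher in libraries 1 and 2 depended on the length used.

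The biliverdin reductases moved little. BLVRA (chr7:43758680-43807342, plus strand) acts on the main biliverdin isomer and BLVRB (chr19:40447765-40465764, minus strand) is a flavin reductase that also reduces fetal biliverdin. BLVRA was at 98.5, 79.8 and 78.7 CPM in vehicle and at 78.5, 75.5 and 81.8 CPM at AA132 30 µM. These overlapped, BLVRA was not called in any comparison, and all of its log2 fold changes against vehicle were below 0. Vehicle library 1 was the highest of all 33 libraries for this gene, and without it the change with Tg was 0.02. BLVRB was at 25.8, 18.5 and 20.1 CPM in vehicle, at 27.1, 26.0 and 23.9 CPM at AA132 10 µM and at 25.6, 25.6 and 24.3 CPM at 30 µM. The treated libraries lay above vehicle libraries 2 and 3 but not clear of library 1. The log2 fold change of BLVRB at 30 µM was 0.23 (SE 0.11, adjusted p = 0.231) and became 0.39 (adjusted p = 0.0197) without vehicle library 1. At 10 µM it was then 0.41 (adjusted p = 0.0293). Its slope over the AA132 libraries, which does not use vehicle, was 0.15 per 10-fold dose (SE 0.03, adjusted p = 0.000764). It was higher at 30 µM than with Tg, which gave 17.6, 20.2 and 20.5 CPM (log2 difference 0.38, SE 0.11, adjusted p = 0.00994), a call that ended without Tg library 1 (adjusted p = 0.0623).

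Both ferritin chains rose at the highest AA132 doses, FTL more than FTH1. FTL (chr19:48965309-48966879, plus strand) was at 226, 166 and 175 CPM in vehicle and at 227, 228 and 225 CPM at AA132 6 µM. At 10 µM it was at 206, 269 and 246 CPM. At 15 µM it was at 286, 283 and 296 CPM, and at 30 µM at 312, 324 and 344 CPM. The 15 and 30 µM libraries lay above all vehicle libraries and apart from each other, while the 10 µM libraries overlapped vehicle. FTL had a log2 fold change of 0.34 (SE 0.09, adjusted p = 0.0447) at 10 µM and 0.61 (SE 0.09, adjusted p = 4.89e-05) at 15 µM. With 30 µM it was 0.79 (SE 0.09, adjusted p = 4.63e-07). The 10 µM call was lost on leaving out any one of 25 of the 33 libraries, with adjusted p up to 0.212. With only the compared conditions in the fit, the calls at 10 and 15 µM were lost (adjusted p = 0.9998 and 0.0888). Without vehicle library 1, FTL was also called at 6 µM (0.41, adjusted p = 0.00482) and with Tg (0.35, adjusted p = 0.00166). Without that library and the 1 and 3 µM pair, FTL was called at 3 µM too (0.40, adjusted p = 0.0159). The slope of FTL was 0.28 per 10-fold dose (SE 0.04, adjusted p = 4.51e-07).

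FTH1 (chr11:61959718-61967634, minus strand), the chain with ferroxidase activity, was at 119.7, 94.5 and 89.6 CPM in vehicle. It was at 105.4, 133.5 and 101.7 CPM at AA132 10 µM, 134.2, 133.8 and 121.7 CPM at 15 µM, and 125.2, 139.7 and 151.5 CPM at 30 µM. All libraries at 15 and 30 µM lay above vehicle library 1, the highest of the vehicle libraries, though the lowest of them was only just above it. FTH1 had a log2 fold change of 0.36 (SE 0.09, adjusted p = 0.0215) at 15 µM and 0.45 (SE 0.09, adjusted p = 0.00143) at 30 µM. The call at 15 µM ended without 15 µM library 1 (adjusted p = 0.0959) or 2 (0.0952) or vehicle library 2 (0.0734) or 3 (0.11). With only the compared conditions in the fit, both calls ended (adjusted p = 0.447 and 0.197). Without vehicle library 1, FTH1 was also called at 10 µM (0.30, adjusted p = 0.0413). The slope was 0.15 per 10-fold dose (SE 0.03, adjusted p = 0.000685).

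With Tg, FTL was at 236, 211 and 207 CPM and FTH1 at 115.0, 121.3 and 111.6 CPM, each overlapping vehicle. Their log2 fold changes were 0.20 (SE 0.09, adjusted p = 0.0868) and 0.20 (SE 0.09, adjusted p = 0.101). Without vehicle library 1 both were called with Tg, FTH1 at 0.33 (adjusted p = 0.00369). At AA132 30 µM both were higher than with Tg, FTL by 0.58 (SE 0.09, adjusted p = 5.17e-06) and FTH1 by 0.26 (SE 0.09, adjusted p = 0.0275). The FTH1 difference was lost without 30 µM library 2 (adjusted p = 0.0645) or 3 (0.159) or Tg library 1 (0.0635) or 3 (0.0853). AA147 gave FTL values of 230, 212 and 218 CPM, with a log2 fold change of 0.22 (SE 0.09, adjusted p = 0.653). This became 0.37 without vehicle library 1 (adjusted p = 0.0746) and passed when the 1 and 3 µM pair was left out as well (0.37, adjusted p = 0.027). Per kilobase of exon the ratio of FTL to FTH1 was 4.30 ± 0.23 in vehicle and 5.43 ± 0.26 at 30 µM (SD, n = 3), with no overlap between the libraries, and 4.33 ± 0.36 with Tg. Ferritin has many processed copies: GENCODE v44 names 41 ferritin pseudogenes and the table holds 1 of them, so how reads from near-identical copies were assigned is uncertain.

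TFRC (chr3:196012511-196082153, minus strand), the transferrin receptor, was not called in any comparison. It was at 217, 331 and 312 CPM in vehicle and at 317, 328 and 251 CPM at AA132 30 µM. Vehicle library 1 was the lowest of all 33 libraries. Its slope on dose was -0.00 (SE 0.02, adjusted p = 0.925), and the 95% interval of its fold change at 30 µM ran from 0.91 to 1.19. Without vehicle library 1 the log2 fold change at 30 µM went from 0.06 to -0.11 (adjusted p = 0.438) and that with Tg from -0.02 to -0.19 (adjusted p = 0.0582).

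Of the synthesis enzymes, FECH (chr18:57544377-57586732, minus strand) rose with Tg and ALAS1 (chr3:52198086-52214327, plus strand) was not called against vehicle. FECH was at 56.2, 62.2 and 61.2 CPM in vehicle, 72.0, 70.3 and 67.2 CPM with Tg and 66.3, 67.9 and 67.1 CPM at AA132 30 µM. Both treated groups lay clear of vehicle. The log2 fold change was 0.22 (SE 0.07, adjusted p = 0.00926) with Tg and 0.16 (SE 0.07, adjusted p = 0.134) at 30 µM. The Tg call ended without Tg library 1 (adjusted p = 0.0636) or vehicle library 1 (0.0579), with no filter on low counts (0.0764) and with only the compared conditions in the fit (0.0992). The difference between the 2 treatments in FECH did not pass the test (30 µM minus Tg -0.06, SE 0.07, adjusted p = 0.555). The slope of FECH on AA132 dose was 0.05 (SE 0.02, adjusted p = 0.0913) and passed without 10 µM library 1 (0.06, adjusted p = 0.0230).

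ALAS1 was at 73.8, 70.6 and 70.6 CPM in vehicle, 66.9, 63.5 and 59.3 CPM with AA147 and 72.1, 76.2 and 82.0 CPM at AA132 30 µM. The AA147 libraries lay below the vehicle range, with a log2 fold change of -0.18 (SE 0.06, adjusted p = 0.532). The slope of ALAS1 on AA132 dose was 0.06 (SE 0.02, adjusted p = 0.0493), just past the threshold. It was lost without the 30 µM dose (adjusted p = 0.432) and without the pair of libraries that stood apart (0.064). Library number as a block (0.0578), DESeq2's size factors (0.0570) and no filter on low counts (0.0672) also ended the call. So did leaving out any one of 18 of the 24 AA132 libraries, with adjusted p up to 0.141. Among them were 1 µM library 1 (0.063), 3 µM library 3 (0.0512) and 30 µM library 3 (0.141). ALAS1 at 30 µM against Tg was 0.15 (SE 0.06, adjusted p = 0.0732), and it passed without vehicle library 1 (adjusted p = 0.0456), AA147 library 1 (0.0467) or 30 µM library 1 (0.0384).

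**Figure D3:**
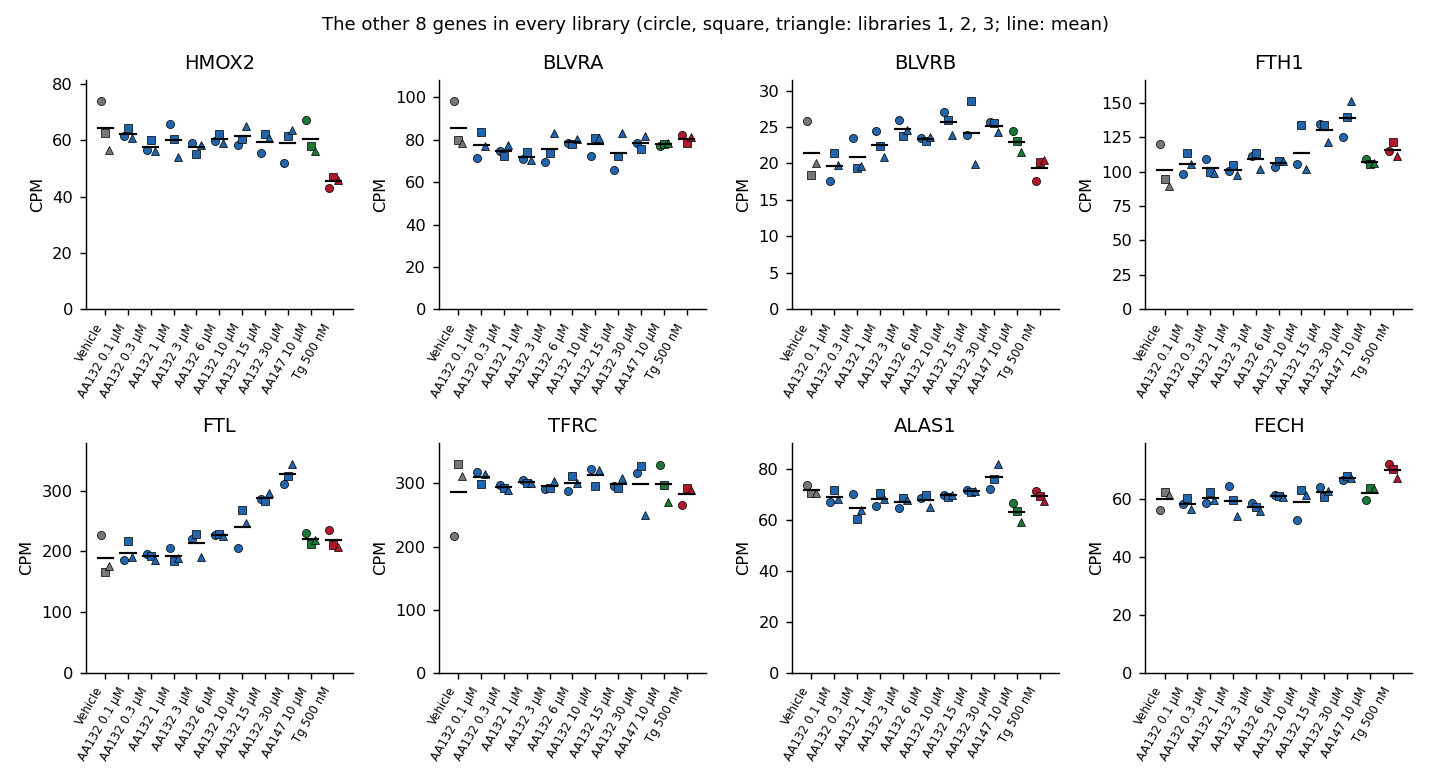
The other 8 genes in CPM for every library and condition, each panel on its own linear axis from 0; circles, squares and triangles are libraries 1, 2 and 3 and lines are means. FTL and FTH1 climb at 15 and 30 µM to 327 and 139 CPM, HMOX2 is lowest with Tg at 45.4 CPM, and vehicle library 1 lies apart in several panels.

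Per kilobase of exon in vehicle, FTL was the most abundant of the 9 transcripts at 217 CPM per kb, followed by FTH1 at 50.5 and BLVRA at 47.0. HMOX1 and FECH were the lowest at 5.68 and 5.38 CPM per kb. At AA132 30 µM HMOX1 reached 87.0 CPM per kb and only FTL lay above it, with FTH1 at 69.3. By the longest transcript HMOX1 and FTH1 were close there, at 118 ± 5.89 and 115 ± 10.9 (SD, n = 3). Since the assignment of ferritin reads is uncertain, so is the place of the ferritin genes in this order. TFRC moves in this order with the length used, from 16.5 to 41.7 CPM per kb in vehicle when its longest transcript replaces all exons.

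The calls were read against those over all genes. With Tg 3 of the 9 were called, HMOX1 and FECH higher and HMOX2 lower, where 31.2% of all genes were called, 16.2% higher and 15% lower, so this share is near the background. AA132 at 10 µM called 2 (HMOX1 and FTL) against 1.41% of all genes, 1.03% higher and 0.371% lower. At 15 µM 3 were called (HMOX1, FTL and FTH1) against 2.76%, and at 30 µM the same 3 against 7.05%, 3.86% higher and 3.19% lower. All of the calls with AA132 were increases. The median log2 fold change of the 9 genes was 0.16 at 30 µM, beside -0.00 over all genes tested, and with Tg it was -0.02 beside 0.00.

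With AA147 none was called by edgeR, against 0.0225% of all genes. At an unadjusted p under 0.05 there were 3 (HMOX1, FTL and ALAS1), beside 1211 of all 17793 genes. DESeq2 called 1, beside 26 of 16067 genes. At 3 µM AA132 none was called against 0.118%. There 2 had an unadjusted p under 0.05 (HMOX1 and BLVRA), beside 1635 of 17793 genes, and DESeq2 called 1, beside 63 of 16067. At 0.1, 0.3 and 1 µM edgeR called 0% of all genes and none of the 9. At these doses 0, 2 and 2 of the 9 had an unadjusted p under 0.05, beside 796, 981 and 1057 of 17793 genes. DESeq2 called none of the 9, beside 1, 2 and 0 of 17792 genes. In AA132 30 µM against Tg 5 of the 9 were called (HMOX1, HMOX2, BLVRB, FTH1 and FTL), all higher with AA132, against 29.8% of all genes. By slope on dose 5 were called (HMOX1, FTL, FTH1, BLVRB and ALAS1), all upward, against 18.7% of the 17554 genes tested there.

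**Figure D4:**
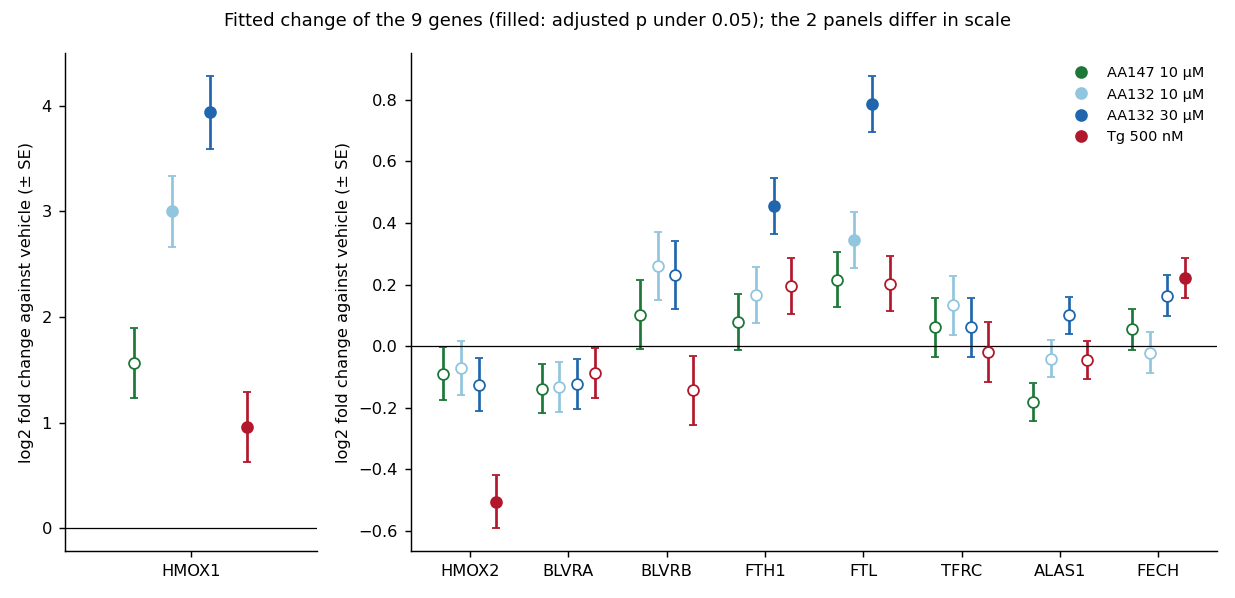
Fitted log2 fold change against vehicle (± SE) of the 9 genes with AA147 at 10 µM, AA132 at 10 and 30 µM and Tg at 500 nM; filled points have adjusted p under 0.05 and the 2 panels differ in scale. HMOX1 reaches 3.94 at 30 µM, FTL 0.79 and FTH1 0.45, and HMOX2 with Tg is the only filled point below 0.

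Genes of the surrounding pathways were counted from lists that hold none of the 9. Their calls with Tg stand beside 31.2% of all genes, and those with AA132 at 10 and 30 µM beside 1.41% and 7.05%. Among the other enzymes of heme synthesis, PPOX, which acts next to last, rose with Tg (log2 fold change 0.26, adjusted p = 0.0328).

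Among heme and porphyrin transporters and carriers, Tg raised ABCG2 (0.43, adjusted p = 0.0350) and SLC48A1, which moves heme out of lysosomes (0.31, adjusted p = 0.00708). AA132 at 30 µM raised ABCB6, a porphyrin transporter (0.52, adjusted p = 0.00690). Among 10 tested genes of iron uptake, reduction and export, SLC39A14, a zinc and iron importer, rose with Tg from 39.2 ± 6.61 to 114 ± 7.03 CPM (SD, n = 3; 1.54, adjusted p = 2.56e-14). It also rose with AA132 at 10 µM (0.59, adjusted p = 0.000415) and 30 µM (0.64, adjusted p = 6.19e-05), by less than with Tg (30 µM minus Tg -0.90, adjusted p = 7.66e-09). STEAP1, of a family of metal reductases, and SLC40A1, the iron exporter ferroportin, fell with Tg (-0.69, adjusted p = 5.54e-05, and -0.32, adjusted p = 0.0228). No other gene of this list was called with Tg or with AA132 at 10 or 30 µM.

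Among 8 tested genes of iron storage and sensing, Tg lowered the iron chaperone gene PCBP1 (-0.20, adjusted p = 0.0111) and raised PCBP2 (0.19, adjusted p = 0.0201). AA132 at 10 and 30 µM gave 0 calls by edgeR or DESeq2 and 0 genes at an unadjusted p under 0.05. Over all genes, 2292 and 3644 of 17793 had such a p at these doses, and DESeq2 called 466 of 15033 and 1669 of 14688. With 1.41% and 7.05% of all genes called by edgeR at these doses, 0 calls among 8 genes is near the background. Among 14 genes of iron-sulfur cluster assembly, Tg lowered NFS1, the cysteine desulfurase (-0.60, adjusted p = 8.36e-09), and CIAO1 (-0.19, adjusted p = 0.00457). AA132 at 30 µM lowered GLRX5 (-0.29, adjusted p = 0.0344), 1 call among the 14, a share near the 7.05% of all genes. The calls of ABCG2, PPOX, SLC40A1, PCBP2 and GLRX5 were each lost under 5 to 8 alternatives, that of PCBP1 under 3 and that of SLC48A1 under 2. Those of CIAO1, ABCB6 and SLC39A14 at 10 and 30 µM were lost with only the compared conditions in the fit.

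Among 13 widely described NRF2 targets outside heme and iron handling, 6 rose with AA132 at 10 µM, where 1.41% of all genes were called, and 8 at 30 µM, where 7.05% were, and none fell. The list's median log2 fold change at 30 µM was 0.49. SLC7A11, the cystine importer, was at 2.77 (adjusted p = 1.22e-07), OSGIN1 at 2.15 (adjusted p = 9.78e-08) and GCLM, a subunit of the enzyme that starts glutathione synthesis, at 1.36 (adjusted p = 9.20e-08). With Tg 5 of the list rose and 4 fell, beside 16.2% and 15% of all genes, with SLC7A11 at 3.65 (adjusted p = 9.62e-12), OSGIN1 at 1.05 (adjusted p = 0.000629) and GCLC at 0.58 (adjusted p = 6.56e-07). Of 8 regulators of the antioxidant response element, Tg raised 3, NFE2L2, which encodes NRF2 (0.48, adjusted p = 0.000102), BACH1 (0.38, adjusted p = 0.0179) and NFE2L1 (0.33, adjusted p = 2.12e-05), a share near the 31.2% of all genes called. AA132 at 30 µM raised KEAP1, the adaptor that targets NRF2 for degradation (0.36, adjusted p = 0.00660). This was 1 call among the 8, a share near the 7.05% of all genes. The BACH1 call was lost under 4 alternatives and that of KEAP1 with only the compared conditions in the fit. Of the 69 tested genes of all 7 lists, edgeR called 0 with AA147. There 13 had an unadjusted p under 0.05, beside 1211 of all 17793 genes, and DESeq2 called 2, beside 26 of 16067. Between AA132 and AA147 at 10 µM edgeR and DESeq2 called 0 of the 69, where DESeq2 called 55 of 14688 genes. Of the 69, 8 had an unadjusted p under 0.05, beside 1425 of 17793 genes.

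**Figure D5:**
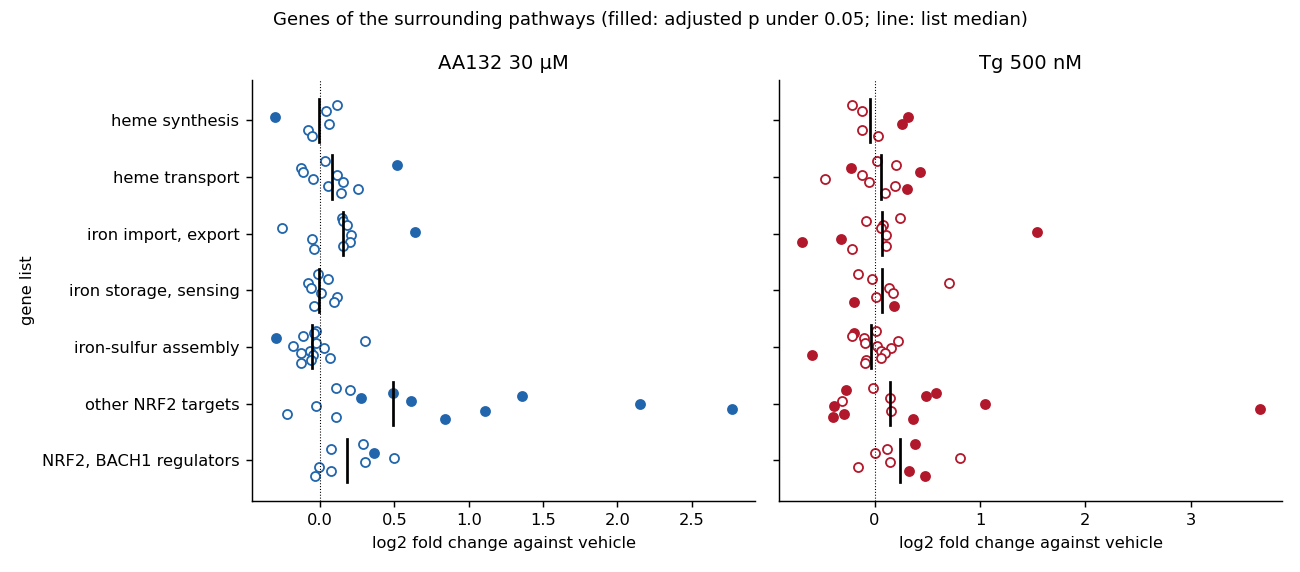
Log2 fold change against vehicle of each tested gene in the 7 pathway lists at AA132 30 µM and with Tg 500 nM; filled points have adjusted p under 0.05 and the line is the list median. At AA132 30 µM the NRF2 targets have a median of 0.49, and with Tg the same list holds calls on both sides of 0.

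The 5 genes whose log2 CPM followed HMOX1 most closely over the 33 libraries, of 14010 with a mean of at least 1 CPM, were GCLM (Pearson r = 0.96), TRIM16 (0.95), HYLS1 (0.95), TXNRD1 (0.94) and TRIM16L (0.94). These are descriptions over libraries that share conditions, and TRIM16 and TRIM16L are near-identical copies whose reads may be split. GCLM rose from 21.9 ± 3.15 CPM in vehicle to 56.3 ± 4.97 CPM at 30 µM AA132 (SD, n = 3). TXNRD1, a thioredoxin reductase, was at 248 ± 32.5 and 445 ± 27.8 CPM. GCLM was at 30.6, 22.1 and 23.0 CPM at 1 µM and at 35.0, 35.6 and 19.7 CPM at 3 µM, a likeness to HMOX1 that follows from how these genes were chosen. Among the other 8 genes r with HMOX1 was 0.90 for FTL, 0.72 for FTH1, 0.61 for BLVRB, 0.38 for ALAS1 and 0.34 for FECH. It was 0.10 for HMOX2, 0.08 for TFRC and -0.08 for BLVRA.

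Promoters of 7 of the 9 genes were matched in a RefSeq table (GRCh38.p14, 250 bases before to 50 after the start). Those of HMOX1 and FTH1 were not analysed here. The core of the antioxidant response element, TGACNNNGC, was sought on both strands and stood in 1 of the 7, that of FECH, and in 13.3% of all 35116 promoters. It is shown as the only match in the 7, and 1 of 7 is near the share of all promoters. The match lies 38 bases before the RefSeq start but touches the GENCODE start given above, since the annotations place the start differently, on the strand opposite to the gene at chr18:57586732-57586740. The match is in capitals in the sense of the gene.
FECH: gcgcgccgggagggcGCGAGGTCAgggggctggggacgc
TGAGTCA, the AP-1 site, stood in 4.95% of all promoters, and TGATGNAA, the core of the C/EBP-ATF response element, in 3.62%, both without a match in the 7. A match is a run of letters in the reference and says nothing of binding, and the window leaves out more distant enhancers.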

How the data were processed

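The authors deposited one table of expected counts, that is, estimated reads for each gene, without normalization across libraries. RNA was sequenced on a DNBSEQ platform, per the labels' protocols. The submitters' processing notes name the build GRCh38.p7; aligner, counter and strand use are not given in the sources used here. Entries sharing a name were summed. The value 0.009, which stands for 0 and fills 43.5% of cells, was set to 0, and counts were rounded.

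Counts were fitted with edgeR 4.0.16 in R 4.3.3 (quasi-likelihood F-test, TMM, filterByExpr, 11 conditions in 1 fit, no block; common biological variation 9.09%). SE is the log2 fold change divided by the root of F. Alternatives used DESeq2 1.42.0, its size factors, no filter, only the compared conditions, library number as a block, no 30 µM dose, and each library left out. Scripts were tested on simulated data.

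The 9 genes and all lists were chosen with earlier results of these data known. From each list, the text names up to 3 called genes with the largest change under Tg and under AA132 at 10 and 30 µM. Any list gene called with AA147 was also to be named. Some genes of the lists are not reported here. Positions are from GENCODE v44 (GRCh38) and played no part in counting.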

Additional observations from a re-analysis of the deposited data

How the results depend on the processing

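No log2 fold change or slope of the 9 genes that was called changed sign under any alternative run. With DESeq2's size factors no count of calls moved by over 1.5 times. DESeq2 itself called 1 of the 9 genes with AA147, 1 at AA132 3 µM and 1 between AA132 and AA147 at 10 µM, where edgeR called 0. Over all genes it called 26 of 16067, 63 of 16067 and 55 of 14688 in these comparisons. With no filter on low counts these 3 counts of the 9 genes were also 1, and 1 gene was called at 1 µM and 2 genes at 6 µM. Of the 30096 genes then tested, 82, 153, 98, 46 and 360 were called, in the same order. Without the filter the SE of HMOX1 at 1 µM was 0.09, against 0.33 with it, though its libraries were at 39.8, 11.5 and 12.1 CPM. That SE is small beside the spread between those libraries, so the HMOX1 calls gained without the filter carry little weight. With only the compared conditions in the fit, 1 was called at 10 µM and 1 at 15 µM, beside 8 of 16490 and 46 of 16479 genes. Library number as a replicate block gave 1 call between AA132 and AA147 (HMOX1, adjusted p = 0.0495), beside 13 of 17793 genes. It moved no other count of the 9 by over 1.5 times. Deviations of same-numbered libraries had a median correlation of 0.0006 (165 pairs, -0.147 to 0.183) and others -0.0015 (330 pairs, -0.143 to 0.222). No pairing by number was seen in this measure, which cannot exclude one. Without 1 µM library 1 and 3 µM library 3, chosen after seeing the data, the count was 1 with AA147, at 3 µM and between the compounds. Over all 18087 genes it was 18, 60 and 33. Leaving out vehicle library 1 as well gave 5 with Tg, 2 with AA147, 2 at 3 µM, 2 at 6 µM, 4 at 10 µM and 1 between the compounds. Calls over all 18070 genes were then 5157, 50, 120, 530, 687 and 92 in the same order. With all libraries they were 5551, 4, 21, 190, 250 and 12 of 17793, so most of these counts grew over all genes too.

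Leaving out 1 library at a time gave 2 to 4 calls with Tg, 0 to 1 with AA147, 0 to 1 at 3 µM, 1 to 2 at 6 µM, 1 to 4 at 10 µM, 2 to 3 at 15 µM, 3 to 4 at 30 µM, 0 to 1 between the compounds, 3 to 6 for 30 µM against Tg and 4 to 6 for the slope, and 0 at 0.1, 0.3 and 1 µM. The number of calls over all genes moved as well. At 10 µM it was 250 with all libraries, 340 without 10 µM library 1 and 213 without 6 µM library 3. The log2 fold change of HMOX1 ran from 3.83 to 4.13 at 30 µM and that of FTL from 0.70 to 0.94, both called throughout.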
